A study of Rattus norvegicus with 9 samples.

Results

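The small leucine-rich proteoglycans are a family of secreted matrix proteins, and 10 of their genes (Fmod, Dcn, Lum, Bgn, Prelp, Epyc, Ogn, Omd, Chad and Aspn) were picked by gene name from the 18924 genes of the table (1 row each). The rule is the gene name alone, but the family was chosen with earlier results of these data known. RNA came from primary rat chondrocytes, the matrix-forming cells of cartilage, of the Sprague-Dawley strain (labelled SD), grown in serum-containing medium to passage 1 or 2. Cells were cultured for 24 h in rat plasma to which thrombin, the protease of blood clotting, and an unnamed inhibitor were added (RPTi), in plasma plus thrombin (RPT), or in plasma alone (RP), with 3 libraries in each group. All groups therefore share the plasma, and no group without plasma or with the inhibitor alone was analysed here. Neither the age of the rats nor the dose of thrombin is given in the sources used here, nor is it known if libraries within a group stem from different animals or cultures. The p-values therefore set differences between groups only against the spread of these libraries, and that spread may be technical.

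Proteins of the family have a core of leucine-rich repeats that binds collagen fibrils and helps to set fibril width and spacing. Decorin, biglycan and epiphycan can carry chondroitin or dermatan sulfate chains, and fibromodulin, lumican and osteomodulin keratan sulfate chains. Several bind growth factors of the TGF-beta family, and soluble biglycan and decorin can act on Toll-like receptors. In cartilage, loss of these proteins from the matrix accompanies breakdown of the collagen network in osteoarthritis.

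The libraries held 31914905 to 37125039 counts in RPTi, 31877265 to 37009972 in RPT and 33520888 to 43962783 in RP. All 12 listed chondrocyte markers passed the count filter, with Col2a1 and Acan at the highest levels, and their summed level was 67273 to 72619 CPM (counts relative to the library total, with TMM scaling) in RPTi, 24443 to 27554 CPM in RPT and 39703 to 42228 CPM in RP. That list itself moved with the groups, with 12 of 12 markers lower in RPT than in RP and 11 of 12 higher in RPTi than in RPT, where 15.2% and 20.4% of all tested genes were called in these directions. Of the tendon and fibroblast markers, 7 of 12 were lower and 1 higher in RPT than in RP, and 8 were higher and 2 lower in RPTi than in RPT, with summed levels of 16052 to 17592 CPM in RPTi, 9513 to 10400 CPM in RPT and 15692 to 17019 CPM in RP, most of it Col1a1 and Col3a1. The 7 macrophage and blood cell markers with a row summed to 24.5 to 28.8 CPM in RPTi, 44.5 to 46.3 CPM in RPT and 23.4 to 27.4 CPM in RP, nearly all of it Cd14 and Cd68, while the pan-leukocyte gene Ptprc had at most 4 counts in any library. Of the 3 tested, 2 were higher and 1 lower in RPT than in RP. Mean Csf1r went the other way from that sum, at 0.510 CPM in RPTi, 0.488 CPM in RPT and 0.945 CPM in RP. The 6 endothelial markers (mainly Plvap and Tek) summed to 1.74 to 2.09 CPM in RPTi, 2.90 to 4.39 CPM in RPT and 1.73 to 2.35 CPM in RP. Plvap was 2.70-fold higher in RPT than in RP (edgeR adjusted p = 0.00056), while the mean CPM of Tek, Kdr, Vwf and Tie1 was lower, all at low counts. The 7 osteoblast markers (mainly Runx2 and Alpl) summed to 38.5 to 40.8 CPM in RPTi, 27.1 to 28.6 CPM in RPT and 34.5 to 37.5 CPM in RP, with Alpl 2.47-fold lower in RPT than in RP (edgeR adjusted p = 2.83e-06). Alpl was the only 1 of the 5 tested that was called there. In RPTi against RPT, 1 of the 5 was higher and 2 were lower. Mean Alpl was 24.6, 5.52 and 13.6 CPM in RPTi, RPT and RP, and mean Runx2 12.6, 19.5 and 18.6 CPM. The 9 muscle and fat markers (mainly Fabp4 and Myh1) summed to 3.75 to 5.03 CPM in RPTi, 5.73 to 6.66 CPM in RPT and 4.97 to 7.21 CPM in RP. The endothelial gene Cdh5 had 0 counts in all but 1 library, with 2 there. The part of these shifts in the results below was not tested. In bulk RNA, fewer cells of a type and less RNA per cell cannot be told apart.

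RefSeq promoter windows on the rat assembly GRCr8, from 250 bases before to 50 after the annotated gene start, were held for 7 of the 10 genes. The 4 below are shown because the expression results turn on them. Fmod and Epyc were called lower in RPT than in RP and higher in RPTi than in both other groups. Lum was lower in RPT and RPTi than in RP, and Chad was lowest in RPTi. Ogn had the same 3 calls as Fmod and Epyc, at low counts, and its window is not shown. Capitals mark matches, on either strand, to the short motifs listed after the sequences.
Fmod promoter, chr13:48045317-48045616, plus strand: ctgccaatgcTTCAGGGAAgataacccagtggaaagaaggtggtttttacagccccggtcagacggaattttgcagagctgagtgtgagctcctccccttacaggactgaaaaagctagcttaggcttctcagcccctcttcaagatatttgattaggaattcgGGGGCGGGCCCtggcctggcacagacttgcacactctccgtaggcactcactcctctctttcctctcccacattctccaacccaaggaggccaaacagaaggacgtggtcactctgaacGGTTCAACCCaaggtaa
Epyc promoter, chr7:34323082-34323381, plus strand: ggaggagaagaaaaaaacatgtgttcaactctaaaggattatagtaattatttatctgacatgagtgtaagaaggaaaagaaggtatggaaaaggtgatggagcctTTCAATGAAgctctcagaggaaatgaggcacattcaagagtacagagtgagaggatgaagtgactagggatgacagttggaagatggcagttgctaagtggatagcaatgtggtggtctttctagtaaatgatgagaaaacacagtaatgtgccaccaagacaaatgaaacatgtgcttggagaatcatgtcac
Lum promoter, chr7:34245456-34245755, plus strand: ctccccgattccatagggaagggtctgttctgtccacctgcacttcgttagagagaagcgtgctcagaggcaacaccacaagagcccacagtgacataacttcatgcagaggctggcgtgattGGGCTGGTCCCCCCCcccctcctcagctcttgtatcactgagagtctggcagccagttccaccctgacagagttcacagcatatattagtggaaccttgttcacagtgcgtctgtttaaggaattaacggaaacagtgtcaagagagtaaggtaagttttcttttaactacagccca
Chad promoter, chr10:80008795-80009094, plus strand: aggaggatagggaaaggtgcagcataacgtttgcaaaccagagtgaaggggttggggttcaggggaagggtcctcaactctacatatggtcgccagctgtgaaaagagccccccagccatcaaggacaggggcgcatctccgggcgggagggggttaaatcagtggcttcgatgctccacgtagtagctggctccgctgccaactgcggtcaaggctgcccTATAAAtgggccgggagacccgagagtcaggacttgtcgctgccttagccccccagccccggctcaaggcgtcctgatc

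The motifs searched were AP-1 (TGANTCA), SOX (ACAATG), STAT (TTCNNNGAA), SMAD (CAGACA), ETS (CCGGAAG), NF-kB (3 G, any 5 bases, then 2 C) and the TATA box (TATAAA), where N is any base. Fmod and Epyc each held 1 match to the STAT letters, starting at -240 in the Fmod window and at -144 in the Epyc window, counted from the gene start, and 8.87% of 33469 rat windows of the same length hold one. The window of Ogn, which had the same calls, held none. Fmod and Lum held 3 matches each to the NF-kB letters, some overlapping each other, which 47.3% of windows hold. Chad had a TATA box match starting at -29, and 14.2% of windows hold those letters. None of the 7 windows held a match to the AP-1, SOX, SMAD or ETS letters, which says only that these letters are not in these windows.

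Biglycan dominated the family in every group. In FPKM (counts scaled by gene length and library total, so that levels of different genes can be compared), Bgn took 57.1% of the summed level of the 10 genes in RPTi, 69.0% in RPT and 62.5% in RP. The sum over the other 9 genes was 839, 768 and 862 FPKM in the RPTi libraries, 482, 457 and 442 FPKM in the RPT libraries, and 617, 616 and 668 FPKM in the RP libraries. Those sums did not overlap between any 2 groups, with RPTi highest and RPT lowest. Fmod alone averaged 548 FPKM in RPTi, 193 FPKM in RPT and 301 FPKM in RP, against mean sums of 823, 460 and 634 FPKM. The place of RPTi above RP in these sums rests on Fmod. Family genes together took 0.535% ± 0.0198 of all counts in RPTi, 0.391% ± 0.0178 in RPT and 0.453% ± 0.00294 in RP (SD, n = 3). Fmod, at mean levels of 2000 CPM in RPTi, 672 CPM in RPT and 1061 CPM in RP, is part of that share.

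The order of the levels differed between the groups below the first 2 places, which Bgn and Fmod held throughout. In RPTi the order was Bgn, Fmod, Prelp, Lum, Epyc, Dcn, Ogn, Chad, Aspn and Omd, and only Ogn and Chad, and Aspn and Omd, were neighbours whose libraries overlapped. In RPT it was Bgn, Fmod, Prelp, Lum, Dcn, Epyc, Chad, Aspn, Ogn and Omd, with overlap between Dcn and Epyc and along the last 3 genes. In RP it was Bgn, Fmod, Lum, Prelp, Epyc, Dcn, Chad, Ogn, Aspn and Omd, with overlap between Lum and Prelp and between Aspn and Omd. Aspn, Omd and Ogn stayed under 2 FPKM in all 9 libraries.

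**Figure D1:**
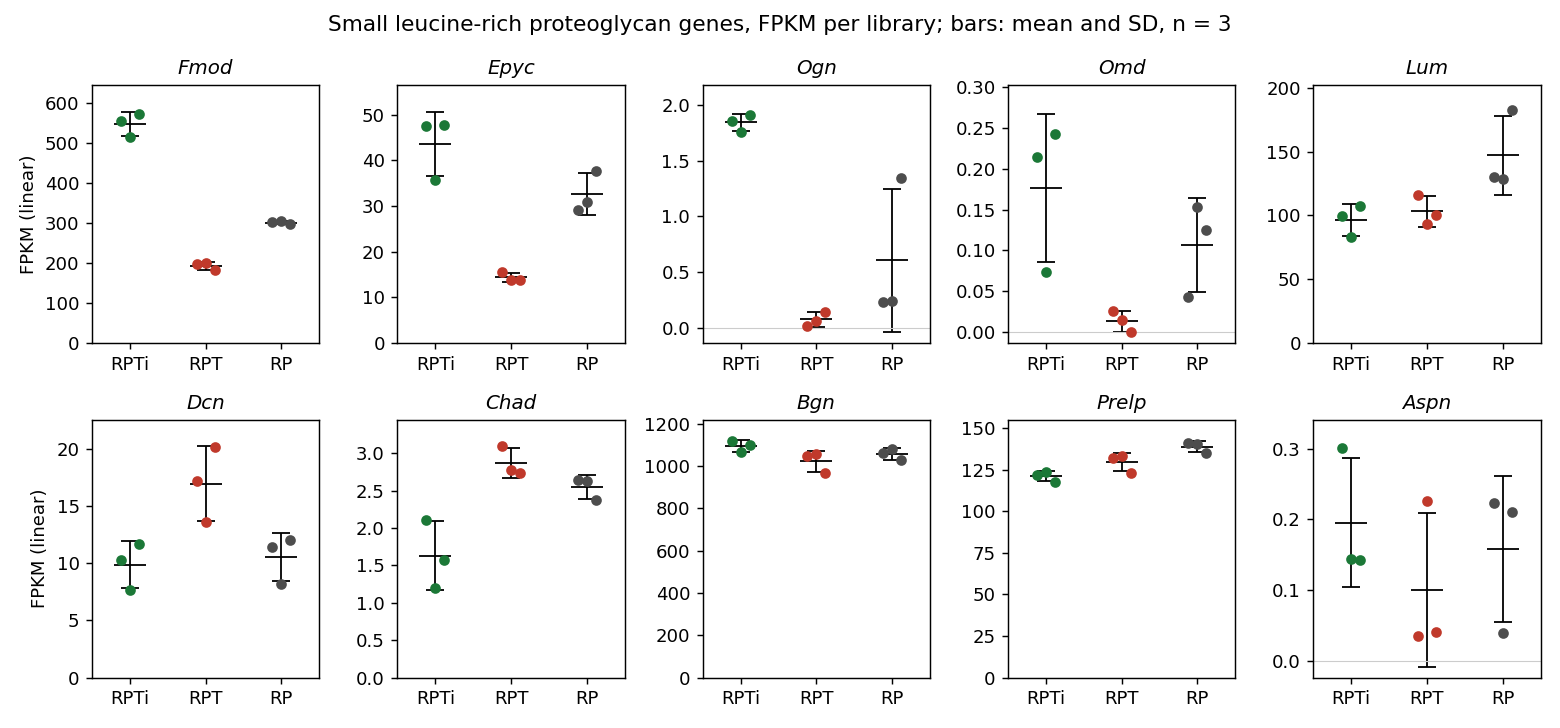
FPKM of each of the 10 genes on linear axes that include 0, 1 panel a gene, with RPTi, RPT and RP from left to right; points are libraries and bars the mean and SD (n = 3). Mean Fmod, Epyc and Ogn were highest in RPTi and lowest in RPT, mean Dcn was highest in RPT, and Bgn and Prelp lay close to level.

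Of the 10 genes, 5 were lower and 1 was higher in RPT than in RP, in edgeR's quasi-likelihood test with Benjamini-Hochberg adjustment over all 13856 tested genes and a threshold of 0.05. Lower in RPT were Fmod, Epyc, Lum, Ogn and Omd, higher was Dcn, and Bgn, Prelp, Chad and Aspn did not pass. Of all tested genes, 28.9% were called in this comparison, 15.2% lower and 13.6% higher. The median log2 fold change was -0.59 over the 10 genes and -0.000707 over all tested genes. Ogn and Omd reached the count filter in no RPT library, so they entered the test through the groups where they are high, and they are 2 of the 5 lower genes here. Over the other 8 genes, 3 were lower and 1 higher, and the median was -0.32. The libraries of RPT and RP did not overlap in CPM for 8 of the 10 genes, against 40.4% of all tested genes, and Ogn and Omd are 2 of these 8.

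With the inhibitor present, 5 genes were higher and 2 lower than with thrombin alone. Fmod, Epyc, Ogn, Omd and Bgn were higher in RPTi than in RPT, Dcn and Chad were lower, and Lum, Prelp and Aspn did not pass. Among all tested genes, 41.5% were called, 20.4% higher and 21.1% lower, and the median log2 fold change was 0.61 over the 10 genes and -0.01 over all. Ogn and Omd are again 2 of the 5 higher genes, and over the other 8 genes 3 were higher and 2 lower, with a median of 0.07. RPTi and RPT libraries did not overlap for 7 of the 10 genes, against 50.8% of all tested genes, and Ogn and Omd are 2 of these 7. Scaling by library totals alone shifted the all-gene split of this comparison to 38.4% of calls being higher, against 49.2% with TMM. Because RPTi against RPT and RPT against RP share the RPT libraries, opposite signs in the 2 comparisons are not independent.

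Against plasma alone, the inhibitor group had 3 genes higher (Fmod, Epyc and Ogn) and 2 lower (Lum and Chad), and 5 did not pass. Over all tested genes, 24.2% were called, 11.9% higher and 12.3% lower, and with library totals alone 36.6% of the calls were higher, against 49.1% with TMM. Libraries of RPTi and RP did not overlap for 6 of the 10 genes, against 43.9% of all tested genes. Without RP replicate 1, RPTi replicate 1 or RPTi replicate 3, 1 gene, Fmod, was left among those higher. Without RP replicate 1 or 2, or RPTi replicate 2 or 3, 1 gene, Lum, was left among those lower. Across the 3 groups together, 8 of the 10 genes differed in the F test, against 46.7% of all tested genes, and Prelp and Aspn did not pass. Ogn and Omd, which reached the count filter in no RPT library, are 2 of these 8.

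**Figure D2:**
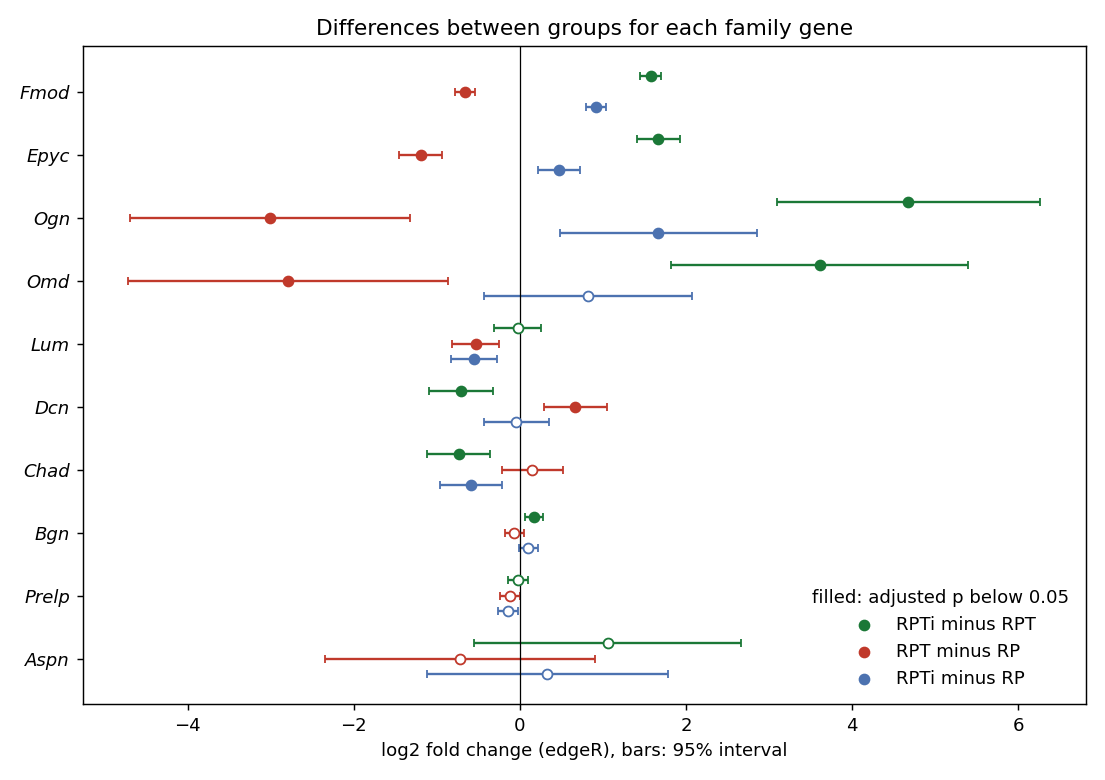
Log2 fold change of each gene in the 3 comparisons, with its 95% interval; filled points have an adjusted p below 0.05. Fmod, Epyc, Ogn and Omd lie right of 0 in RPTi minus RPT and left of 0 in RPT minus RP, Dcn does the reverse, and the intervals of Ogn, Omd and Aspn are the widest.

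Fibromodulin (Fmod, ENSRNOG00000003183), a keratan sulfate proteoglycan that binds fibrillar collagen, had the smallest adjusted p-value of the 10 genes in each comparison. It stood at 555, 515 and 574 FPKM in RPTi, 198, 201 and 182 FPKM in RPT, and 302, 305 and 297 FPKM in RP. The 3 groups were fully separate, RPTi above RP and RP above RPT. Fmod was 2.98-fold higher in RPTi than in RPT (log2 fold change 1.57, SE 0.06, adjusted p = 9.17e-10), and its log2 fold change was -0.66 in RPT against RP (SE 0.06, adjusted p = 3.23e-06). It also exceeded plasma alone in RPTi by 1.89-fold (log2 fold change 0.92, SE 0.06, adjusted p = 2.55e-07). These calls held in edgeR with each library left out in turn.

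Epiphycan (Epyc, ENSRNOG00000004717), a dermatan sulfate proteoglycan of growth plate cartilage, followed the same order of group means at a much lower level. Its FPKM were 47.5, 35.6 and 47.7 in RPTi, 15.6, 13.8 and 13.9 in RPT, and 29.2, 30.9 and 37.8 in RP. Every RPT library lay below every other library, whereas RPTi and RP overlapped through RPTi replicate 2 and RP replicate 3. Epyc was 3.18-fold higher in RPTi than in RPT (log2 fold change 1.67, SE 0.12, adjusted p = 2.48e-07) and 2.29-fold lower in RPT than in RP (log2 fold change -1.19, SE 0.12, adjusted p = 1.07e-05). The difference between RPTi and RP was smaller (log2 fold change 0.47, SE 0.12, adjusted p = 0.0102) and did not pass in edgeR without RP replicate 1 (adjusted p = 0.0513), RPTi replicate 1 (adjusted p = 0.0616) or RPTi replicate 3 (adjusted p = 0.0521).

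Osteoglycin (Ogn, ENSRNOG00000047786), also called mimecan, was present at low counts with a wide swing. The libraries held 103, 84 and 105 counts in RPTi, 1, 3 and 7 counts in RPT, and 15, 12 and 75 counts in RP. No group overlapped another, but RP replicate 3 stood far above the other 2 RP libraries. The ratio of summed counts, scaled by TMM, was 26.7 for RPTi over RPT (95% counting interval 14.7 to 54.1) and 0.121 for RPT over RP (0.0584 to 0.225), and these exact intervals cover counting error only. In edgeR the log2 fold change was 4.68 in RPTi against RPT (SE 0.73, adjusted p = 0.000223) and -3.01 in RPT against RP (SE 0.78, adjusted p = 0.0114), and the second was -1.66 without RP replicate 3 and did not pass in limma on log2(FPKM + 1) (adjusted p = 0.0935). In RPTi against RP it was 1.67 (SE 0.55, adjusted p = 0.0423), and this was lost without any of RP replicates 1 and 2, RPT replicate 2 and the 3 RPTi libraries (adjusted p = 0.0514 to 0.127) and in DESeq2 (adjusted p = 0.12), while without RP replicate 3 it was 3.02 (adjusted p = 0.000195).

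Osteomodulin (Omd, ENSRNOG00000039560), a keratan sulfate protein best known from bone, was at the edge of detection. Its counts were 17, 5 and 19 in RPTi, 2, 1 and 0 in RPT, and 4, 11 and 10 in RP. The RPT libraries lay below all others, and RPTi and RP overlapped. The summed counts gave an RPTi over RPT ratio of 13.7 (95% counting interval 4.39 to 69.4) and an RPT over RP ratio of 0.134 (0.026 to 0.44). Omd passed in edgeR for RPTi against RPT (log2 fold change 3.61, SE 0.82, adjusted p = 0.00352) and for RPT against RP (log2 fold change -2.79, SE 0.89, adjusted p = 0.0323). The second call was lost in edgeR without RP replicate 2, RP replicate 3, RPT replicate 2 or RPT replicate 3 (adjusted p = 0.0738 to 0.0974) and in limma on log2(FPKM + 1) (adjusted p = 0.172) or log2(FPKM + 0.1) (adjusted p = 0.0676). 

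Lumican (Lum, ENSRNOG00000004610), a keratan sulfate relative of fibromodulin that binds an overlapping site on fibrillar collagen, took another course. It had 99.8, 82.7 and 107 FPKM in RPTi, 116, 93.2 and 99.9995 FPKM in RPT, and 130.4, 128 and 182 FPKM in RP. Both thrombin groups lay below every RP library and overlapped each other. Its log2 fold change was -0.53 in RPT against RP (SE 0.13, adjusted p = 0.00876) and -0.55 in RPTi against RP (SE 0.13, adjusted p = 0.00834), and in RPTi against RPT it was -0.02 (95% interval -0.31 to 0.26, edgeR adjusted p = 0.901). RP replicate 3 raised the plasma mean, and without it the difference between RPT and RP was -0.35 (adjusted p = 0.0265).

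Decorin (Dcn, ENSRNOG00000004554), which binds collagen and TGF-beta, was the 1 family gene higher in RPT than in RP. Its FPKM were 10.3, 7.66 and 11.7 in RPTi, 17.2, 13.6 and 20.2 in RPT, and 11.4, 8.19 and 12.02 in RP. All RPT libraries lay above all others, RPTi and RP overlapped, and the library numbered 2 was the lowest of each group. Dcn was 1.59-fold higher in RPT than in RP (log2 fold change 0.67, SE 0.18, adjusted p = 0.0128) and 1.63-fold lower in RPTi than in RPT (log2 fold change -0.71, SE 0.18, adjusted p = 0.0062). Leaving out RP replicate 2 (adjusted p = 0.0505) or RPT replicate 3 (adjusted p = 0.0511) in edgeR ended the call of RPT against RP. In RPTi against RP the log2 fold change was -0.04 (95% interval -0.43 to 0.35, edgeR adjusted p = 0.895).

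Biglycan (Bgn, ENSRNOG00000055962), the closest relative of decorin, moved little for all its abundance. It measured 1119, 1066 and 1099.9 FPKM in RPTi, 1046, 1057 and 966 FPKM in RPT, and 1061, 1081 and 1027 FPKM in RP. The RPTi and RPT libraries did not overlap, and those of RPT and RP did. Bgn was 1.12-fold higher in RPTi than in RPT (log2 fold change 0.17, SE 0.05, adjusted p = 0.0172), a call lost with library totals in place of TMM (log2 fold change 0.10, adjusted p = 0.118), in limma on log2(FPKM + 1) (adjusted p = 0.216) and without RPTi replicate 1 (adjusted p = 0.0753). In RPT against RP its log2 fold change was -0.07 (95% interval -0.18 to 0.04, edgeR adjusted p = 0.376).

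Prelp (ENSRNOG00000003120), which anchors collagen to heparan sulfate of basement membranes, also differed little between groups. It had 122, 124 and 118 FPKM in RPTi, 132, 133 and 123 FPKM in RPT, and 141, 140.4 and 135 FPKM in RP. Every RP library lay above the libraries of both thrombin groups. The log2 fold changes were -0.12 in RPT against RP (95% interval -0.24 to -0.00345, edgeR adjusted p = 0.117) and -0.14 in RPTi against RP (-0.26 to -0.03, adjusted p = 0.0713), so neither passed after adjustment. With library totals in place of TMM the log2 fold change in RPTi against RP was -0.20 and passed in edgeR (adjusted p = 0.0139). Both comparisons with RP passed in edgeR with a replicate block, whose values are given in the last section.

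Asporin (Aspn, ENSRNOG00000015410), which binds collagen and TGF-beta and has been linked to human osteoarthritis, held 17, 7 and 8 counts in RPTi, 2, 11 and 2 counts in RPT, and 15, 2 and 12 counts in RP. The groups overlapped throughout. The summed counts gave an RPTi over RPT ratio of 2.15 (95% counting interval 1.13 to 4.27), which covers counting error only. In edgeR, which includes the spread between libraries, the log2 fold change was 1.06 (95% interval -0.55 to 2.66) and did not pass. It passed in edgeR only without RPT replicate 2 (adjusted p = 0.0431).

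Chondroadherin (Chad, ENSRNOG00000003304), a chain-free cartilage protein that binds collagen and cell-surface integrins, was lower with the inhibitor. It stood at 2.11, 1.20 and 1.58 FPKM in RPTi, 3.10, 2.77 and 2.73 FPKM in RPT, and 2.64, 2.63 and 2.37 FPKM in RP. All RPTi libraries lay below all others. Chad was 1.67-fold lower in RPTi than in RPT (log2 fold change -0.74, SE 0.17, adjusted p = 0.00446) and 1.50-fold lower in RPTi than in RP (log2 fold change -0.59, SE 0.17, adjusted p = 0.0274). The second call was lost in edgeR without RP replicate 1, RP replicate 2, RPTi replicate 2 or RPTi replicate 3 (adjusted p = 0.065 to 0.0941), and in RPT against RP the log2 fold change was 0.15 (95% interval -0.22 to 0.52, adjusted p = 0.555).

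The balance between family genes differed by group. The FPKM ratio of Fmod to Lum was 5.56, 6.22 and 5.36 in RPTi, 1.70, 2.15 and 1.82 in RPT, and 2.31, 2.38 and 1.63 in RP. Only RPTi stood apart on that ratio. The ratio of Epyc to Dcn was 4.61, 4.65 and 4.08 in RPTi, 0.908, 1.02 and 0.689 in RPT, and 2.55, 3.77 and 3.14 in RP, so RPT held about as much Dcn as Epyc and the other groups several times more Epyc. The ratio of Fmod to Bgn was 0.5003 ± 0.020 in RPTi, 0.189 ± 0.000763 in RPT and 0.285 ± 0.00336 in RP (SD, n = 3), with very little spread within groups. These ratios were chosen after the values were seen and were not tested.

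**Figure D3:**
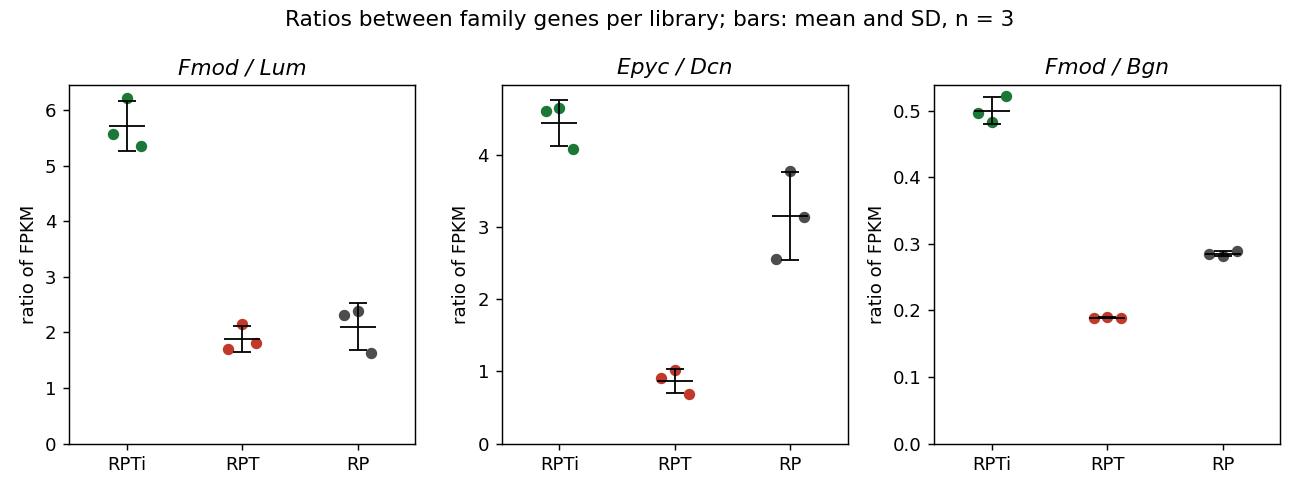
Ratio of FPKM between pairs of family genes in each library on a linear axis from 0, with RPTi, RPT and RP from left to right; bars are the mean and SD (n = 3). Fmod to Lum is 5.71 in RPTi, 1.89 in RPT and 2.11 in RP on average, while Epyc to Dcn and Fmod to Bgn separate all 3 groups.

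Several family genes sit next to each other in the genome, but neighbours did not always change together. On the assembly GRCr8, used here only for gene order, Dcn, Lum, Kera and Epyc are consecutive protein-coding genes, as are Optc, Prelp and Fmod, and Ogn, Omd and Aspn. In the first run, Dcn was higher in RPT than in RP while Lum and Epyc were lower, and Kera had at most 1 count in any library. In the second run, Fmod differed in all 3 comparisons while Prelp and Optc passed in none. In the third run, Ogn and Omd were both lower in RPT than in RP and higher in RPTi than in RPT, while Aspn passed in none. Counts were low there, with at most 19 for Omd and 17 for Aspn in any library, and 84 to 105 for Ogn in RPTi. Ogn, Omd and Aspn lie within the span of Cenpp on that assembly, a gene not analysed here, and Chad lies within Acsf2. The strand setting of the counting is not given and the library kit named is not described as strand-marking, so reads of such partners may be mixed in. Acsf2 had 571, 489 and 617 counts in RPTi, 613, 588 and 496 counts in RPT and 937, 746 and 732 counts in RP. Its log2 fold change was -0.01 in RPTi against RPT (edgeR adjusted p = 0.927), where Chad fell. Chad was also lower in RPTi than in RP, and there every RPTi library held fewer Acsf2 counts than every RP library, before scaling for depth. Every RPT library likewise held fewer Acsf2 counts than every RP library, where Chad was not called (log2 fold change 0.15). Mixing of Acsf2 reads into Chad was not tested.

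Of 8 further family genes listed, 7 had a row and 4 passed the filter. Chadl (chondroadherin-like), a cartilage leucine-rich repeat protein, had 20.5, 17.7 and 21.2 FPKM in RPTi, 7.67, 7.41 and 6.09 FPKM in RPT, and 11.6, 11.2 and 10.6 FPKM in RP. It was 2.95-fold higher in RPTi than in RPT and 1.60-fold lower in RPT than in RP (edgeR adjusted p = 6.82e-08 and adjusted p = 0.00023). Tsku (tsukushi), a secreted modulator of BMP and Wnt signals, rose in both thrombin groups, by 0.43 on the log2 scale in RPTi against RP and by 0.36 in RPT against RP, and did not pass between them (log2 fold change 0.07, edgeR adjusted p = 0.399). Podnl1 (podocan-like) fell in RPT against RP (log2 fold change -0.31) and was lower again in RPTi than in RPT (log2 fold change -0.26, edgeR adjusted p = 0.0313). Optc (opticin) passed in none, and Kera (keratocan), Nyx (nyctalopin) and Ecm2 did not reach the filter, with at most 15 counts in any library.

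Among 9857 other genes with a mean of at least 5 CPM, Chadl was the one whose 3 group means followed those of Fmod most closely. The root mean square difference of their centred log2 CPM over the 3 groups was 0.0151, ahead of Tmem140 (0.0166) and Glis1 (0.0182), and 8 genes lay within 0.05 of Fmod. The gaps between these distances are far smaller than the SE of Chadl's log2 fold change in RPTi against RPT (0.098), so their order is not resolved. Near-level patterns were common, with 883 genes within 0.05 of Bgn and 805 within 0.05 of Prelp, led by Dcaf11, Plpbp and Fam32a for Bgn and by Clasp1, Eloa and Wrnip1 for Prelp. Within the family, the closest pair was Bgn and Prelp (0.106), and Fmod lay 0.232 from Epyc, 0.723 from Lum and 0.937 from Dcn.

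Other genes of the pathway were taken from 6 lists of partners. Of all tested genes, 20.4% were higher and 21.1% lower in RPTi than in RPT, and 13.6% higher and 15.2% lower in RPT than in RP. Against RP, 11.9% were higher and 12.3% lower in RPTi. All counts of these lists stand against those shares. Of 21 tested genes for chondroitin and dermatan sulfate chains, 13 were higher and none lower in RPTi than in RPT (median log2 fold change 0.37), and 11 were lower and none higher in RPT than in RP (median -0.24). Xylt1, which starts the chain by adding xylose to the core protein, was 2.83-fold higher in RPTi than in RPT (edgeR adjusted p = 1.61e-09) and 1.63-fold lower in RPT than in RP (edgeR adjusted p = 2.31e-06). The chondroitin sulfotransferase gene Chst11 changed by 1.02 and -0.49 on the log2 scale in these comparisons, and Csgalnact1, which begins chondroitin, fell by 0.87 in RPT against RP. Chsy1, which extends chondroitin, was 1.78-fold higher in RPTi than in RPT. Compared with RP, RPTi had 8 of the 21 higher and 1 lower.

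Keratan sulfate enzymes went both ways. In RPTi against RPT, 3 of 9 were higher and 4 lower, where 20.4% and 21.1% of all tested genes were. In RPT against RP, 4 were higher and 2 lower, where 13.6% and 15.2% of all tested genes were. The sulfotransferase genes Chst1 and Chst2 were lower in RPTi than in RPT (log2 fold changes -1.66 and -0.94), as was B3gnt2, which extends the chain (log2 fold change -0.46). B3gnt2 was 1.50-fold higher in RPT than in RP (edgeR adjusted p = 0.00034). Of the galactosyltransferase genes, B4galt1 rose by 0.25 on the log2 scale and B4galt4 fell by 0.52 in RPT against RP. RPTi had 1 of the 9, B3gnt7, higher (log2 fold change 0.65) and 2, Chst2 (-1.01) and Fut8 (-0.31), lower than RP. These counts lie near the shares of all tested genes, 11.9% and 12.3%. Of 5 genes for sulfate supply and tyrosine sulfation, a modification of fibromodulin and other family members, 4 were higher and none lower in RPTi than in RPT, and 3 were lower and none higher in RPT than in RP. The sulfate transporter gene Slc26a2 was 2.24-fold higher in RPTi than in RPT and 2.15-fold lower in RPT than in RP, and the tyrosylprotein sulfotransferase gene Tpst1 fell by 0.63 on the log2 scale in RPT against RP. Papss1 and Papss2, which make the sulfate donor, were higher in RPTi than in RPT (log2 fold changes 0.58 and 0.88) and were the 2 of the 5 higher in RPTi than in RP, where 1, Tpst1, was lower.

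Of 12 tested genes of collagens that these proteins bind or accompany, 9 were higher and none lower in RPTi than in RPT (median log2 fold change 0.68), and 8 were lower and 2 higher in RPT than in RP (median -0.56). Col14a1, a collagen on fibril surfaces, was 3.13-fold higher in RPTi than in RPT and 2.40-fold lower in RPT than in RP. Col2a1, the main cartilage collagen, was 2.54-fold higher in RPTi than in RPT and 1.61-fold lower in RPT than in RP. Col12a1, a close relative of Col14a1, was 2.51-fold higher in RPTi than in RPT, Col5a1 was 1.27-fold higher in RPTi than in RP, and Col1a1 fell by 0.87 on the log2 scale in RPT against RP. Col6a1 and Col6a2, whose network binds biglycan and decorin, were the 2 that rose in RPT against RP (log2 fold changes 0.16 and 0.21). Of these collagen genes, 7 were higher and none lower in RPTi than in RP.

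Of 12 tested genes for proteases that cut family proteins or process matrix precursors, 6 were higher and 4 lower in RPTi than in RPT, and 4 were higher and 6 lower in RPT than in RP. Mmp3 (log2 fold change 4.27) and Mmp9 (2.98), which degrade many matrix proteins, and Htra1 (0.63), a serine protease with family proteins among its substrates, rose in RPT against RP, as did the collagenase Mmp13 (0.49), which cuts fibromodulin. These 4 genes were also the 4 lower in RPTi than in RPT, with log2 fold changes of -3.80 for Mmp3, -1.53 for Mmp9, -1.16 for Htra1 and -2.57 for Mmp13. Of the 6 that were lower in RPT, Adamts5, an aggrecan-cutting protease, was 2.77-fold higher in RPTi than in RPT and 1.83-fold lower in RPT than in RP (edgeR adjusted p = 2.1e-08 and adjusted p = 5.64e-06). Adamts4, Tll1, Pcolce and Ctsk were also higher in RPTi than in RPT (log2 fold changes 0.98, 1.58, 0.80 and 0.64) and lower in RPT than in RP (-0.85, -1.03, -0.64 and -0.36). Bmp1, which trims the propeptide of biglycan, was higher in RPTi than in RPT (log2 fold change 0.63) and lower in RPT than in RP (-0.29). Set against RP, RPTi had 6 of the 12 higher and 2 lower.

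Of 15 tested genes for signals that the family binds, 3 were higher and 9 lower in RPTi than in RPT, and 5 were higher and 3 lower in RPT than in RP. Tgfb2 and Tgfb3 were higher in RPTi than in RPT (log2 fold changes 1.03 and 1.44) and lower in RPT than in RP (-0.55 and -0.56), while Tgfb1 did the reverse (-0.88 and 0.69). Tlr2, a Toll-like receptor for soluble biglycan, was 7.73-fold higher in RPT than in RP (edgeR adjusted p = 1.97e-07) and its log2 fold change was -2.68 in RPTi against RPT. Met, a receptor tyrosine kinase that decorin binds, rose by 0.64 on the log2 scale in RPT against RP and was at -1.35 in RPTi against RPT. Bmp4, a bone morphogenetic protein, was higher in RPTi than in RPT (0.40) and lower in RPT than in RP (-0.77) on the log2 scale. In RPTi against RP, 3 of the 15 were higher and 6 lower. The percentages of all genes called, given above for each comparison, are the background of these counts too.

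**Figure D4:**
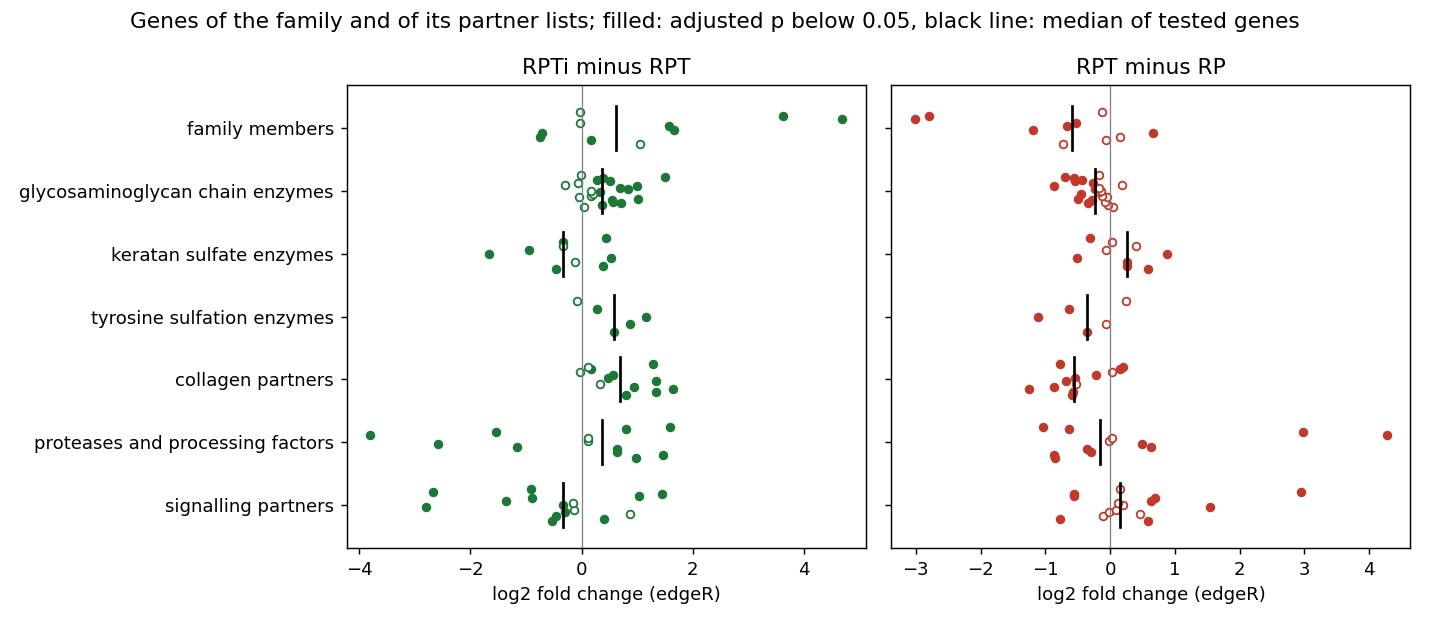
Log2 fold changes of the 10 family genes and of the tested genes of 6 partner lists, RPTi minus RPT on the left and RPT minus RP on the right; filled points have an adjusted p below 0.05 and black lines are medians. Chain enzymes and collagens lie mostly right of 0 on the left panel and left of 0 on the right panel, while keratan sulfate enzymes, proteases and signals spread to both sides.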

How the data were processed

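Poly-A RNA of 9 rat chondrocyte libraries was sequenced as 150 bp paired reads. The deposited table held whole-number counts per Ensembl gene and FPKM, both made by the authors. Per the submitters' processing notes the build was Rnor_6.0 and the tools included HISAT2, HTSeq 0.11.2 and DESeq2 1.26.0, with no roles given. Annotation release and strand setting: not given in the sources used here. Groups and replicate numbers came from the sample titles.

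From the counts, filterByExpr (minimum count 10, minimum total 15) kept 13856 of 18924 genes, and TMM scaling and a quasi-likelihood fit over all 9 libraries with 1 coefficient per group followed (edgeR 4.0.16, R 4.3.3). All single-gene adjusted p-values are from this fit, Benjamini-Hochberg over all tested genes, unless another tool is named. Standard errors (SE) were derived from the fold change and F statistic. Fitted folds of Omd, Ogn and Aspn depend on edgeR's prior count of 0.125. FPKM are the deposited values, scaled by library totals and not by TMM. The fit was tested on simulated data. Alternatives were DESeq2 1.42.0, limma 3.58.1 on log2 FPKM, other scalings and filters, 2-group fits, a replicate block and leaving out each library.

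The family genes and the lists of partners and markers were chosen with earlier results of these data known. Named genes were the 10 members, the other family genes, up to 3 called genes with the smallest p per partner list and comparison, the 2 most abundant markers of each other cell type, and the 3 genes nearest in pattern to Bgn, Fmod and Prelp, while Tgfb1, Bmp1, Adamts4, Tll1, Pcolce, Ctsk, Col6a2, the counts without Ogn and Omd and the further values of named genes were chosen after their values were seen. Of the listed partner and marker symbols, 8 matched no row. Protein features were not analysed here. Promoter windows are RefSeq's, on GRCr8, another build than the counts use.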

Additional observations from a re-analysis of the deposited data

How the results depend on the processing

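Of 531 gene-level values under the alternatives, 488 kept direction and side of the threshold, 27 were no longer called, 8 became called and 8, all of uncalled values, changed sign. The count lower in RPT than in RP was 3 in limma on log2(FPKM + 1). With single libraries left out, the count higher in RPT than in RP was 0 to 1, that higher in RPTi than in RP 1 to 3, and that lower in RPTi than in RP 1 to 3. Counts in RPTi against RPT and over the 3 groups stayed within 1.5 times. The sign changes were those of Dcn in RPTi against RP (-0.19 to 0.11 over single libraries left out, with 0.02 without RP replicate 1, 0.06 without RP replicate 3 and 0.11 without RPTi replicate 2), Aspn in RPTi against RP (-0.13 to 0.67, with -0.09 without RP replicate 2 and -0.13 without RPTi replicate 1), Lum in RPTi against RPT (-0.10 to 0.075, with 0.06 without RPT replicate 1 and 0.075 without RPTi replicate 2) and Prelp in RPTi against RPT (-0.056 to 0.00233, the highest without RPT replicate 2). The cause of these shifts was not tested, except that limma's pseudocount shrinks the folds of low genes by construction. Correlations of same-numbered deviations ran from -0.114 to 0.124. Those of different numbers ran from -0.161 (RPT replicate 2 with RP replicate 3) to 0.143 (RPT replicate 1 with RP replicate 3). Such values cannot decide whether equal replicate numbers share a culture or batch, and the labels do not say. With a replicate block, Prelp passed in RPT against RP (-0.12, adjusted p = 0.0184) and in RPTi against RP (-0.14, adjusted p = 0.00835) in edgeR, so 6 genes were lower in RPT and 3 lower in RPTi than in RP, and no other family call changed. Calls over all genes with the block were 6698 against 5745 in RPTi against RPT, 5074 against 3999 in RPT against RP and 4689 against 3352 in RPTi against RP. A library correlated best with its own number in another group in 8 of 18 comparisons, each a choice among 3 libraries. Depth limits Omd, Ogn and Aspn, whose libraries held 0 to 105 counts.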
